A study of Rattus norvegicus with 12 samples.

Results

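MiR-378a, miR-193 and miR-365 are microRNAs known for their part in brown fat and in the control of mitochondrial metabolism, and they were followed here in rat aorta together with miR-455. Members were taken by a rule on names that was set with earlier results of these data known: every row of the deposited table whose name, without its arm, was miR-378a, miR-378b, miR-3557, miR-193a, miR-193b, miR-365 or miR-455. These 7 hairpins gave 12 mature miRNAs of the 641 listed. Small RNA was sequenced from aortas of female spontaneously hypertensive rats (SHR), a strain bred for its raised blood pressure. A treated group of 6 samples carried the label EWH, in a series whose title names peptides from egg white, and a group of 6 samples received saline. All samples of both groups were female SHR aorta; the labels give no age, dose or duration. Whether each sample is its own animal is not stated, and p-values therefore reflect the spread among samples alone, part of which may be technical.

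A microRNA hairpin can yield a mature strand from each arm, named 5p and 3p, and a mature strand recognises target mRNAs mainly through its seed, bases 2 to 8. In mice miR-378a is made from an intron of Ppargc1b, the gene of the coactivator PGC-1β, and takes part in lipid and mitochondrial metabolism and in the expansion of brown fat. Also in mice, miR-193b, its cluster partner miR-365, and miR-455 favour the formation of brown adipocytes, while miR-378a is abundant in skeletal and heart muscle too. The aorta is wrapped in perivascular fat, whose character differs along the vessel, and the labels do not say whether that fat was removed.

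The mature sequences show which members can be told apart and which cannot. RefSeq (build GRCr8) held 10 of the 12, and no sequence was used for miR-378b or miR-455-5p. They are printed 5′ to 3′ with the seed in capitals, apart from that of miR-365-5p, which had 1 read.
miR-378a-3p: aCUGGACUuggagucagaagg
miR-378a-5p: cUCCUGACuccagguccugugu
miR-3557-5p: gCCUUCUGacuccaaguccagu
miR-3557-3p: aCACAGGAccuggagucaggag
miR-193a-5p: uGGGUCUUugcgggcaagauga
miR-193a-3p: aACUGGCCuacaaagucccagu
miR-193b-3p: aACUGGCCcacaaaguccc
miR-365-3p: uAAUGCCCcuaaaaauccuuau
miR-455-3p: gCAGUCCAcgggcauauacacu
The 10 sequences carried 9 distinct seeds, and the seed ACUGGCC of miR-193a-3p and miR-193b-3p was the one that members shared. No listed miRNA outside the members with a RefSeq sequence had the seed of a member. In RefSeq's gene table the hairpins of miR-193a and miR-365 (there Mir365b) both lie inside the gene Faul2 on chromosome 10, on its strand. Each miRNA was looked up at a single place, so any further copy of the miR-365 hairpin was not examined. The hairpin of miR-455 lies inside Col27a1 on chromosome 5, on its strand.

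MiR-378a and miR-3557 come from opposite strands of one place on chromosome 18, miR-378a on the strand of Ppargc1b and miR-3557 on the other. Below, the reverse complement of each miR-3557 arm is printed with the bases it shares with a miR-378a arm in capitals.
reverse complement of miR-3557-5p, against miR-378a-3p: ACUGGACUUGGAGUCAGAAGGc
reverse complement of miR-3557-3p, against miR-378a-5p: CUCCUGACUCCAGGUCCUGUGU
All 21 bases of miR-378a-3p and all 22 bases of miR-378a-5p are covered. The strand handling of the deposited counts is not given in the sources used here, so reads listed as miR-3557 cannot be told apart from reads of miR-378a, and these 4 rows are not separate observations.

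Levels are given in reads-per-million (rpm), as deposited, and each rests on totals of 23887799 to 24772944 reads per library, where a read was worth 0.0404 to 0.0419 rpm. Where a library had no read, a level of up to 3 reads, or 0.121 to 0.126 rpm depending on the library, is allowed by counting error alone. The mature strands differ little in length and rpm carries no length term, but ligation and amplification can favour some sequences, so levels of different miRNAs are compared only roughly. By mean level over the 12 libraries, miR-3557-5p came first among the members (2726 rpm, place 24 of 641 in the table). It was followed by miR-378a-3p (301 rpm, place 66), miR-455-3p (92.5 rpm, place 93), miR-378a-5p (38.0 rpm, place 123), miR-193a-5p (28.4 rpm, place 139), miR-365-3p (18.2 rpm, place 160), miR-3557-3p (15.1 rpm, place 171) and miR-455-5p (4.37 rpm, place 227). Neighbours in this order overlapped in their ranges over the libraries, and so did the members below them among themselves, while miR-193a-3p lay below miR-455-5p in every library.

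The 3p strand of miR-378a (rno-miR-378a-3p), which represses metabolic targets in mouse liver and fat, ranged from 90.0 rpm through a median of 155 to 376 rpm in the 6 EWH libraries, and from 76.4 rpm through a median of 267 to 1321 rpm in the 6 saline libraries. All 6 EWH libraries lay inside the saline range. The saline libraries fell far apart, with saline 1 at 1321 rpm, saline 3 at 489 rpm and saline 5 at 415 rpm, while saline 2, 4 and 6 read 76.4, 82.7 and 119 rpm. In EWH, EWH 2 read highest at 376 rpm and EWH 1 next at 209 rpm. The mean was 184 ± 102 rpm in EWH and 417 ± 477 rpm in saline (SD, n = 6 each), and the saline mean without saline 1 was 236 rpm. The less abundant 5p strand (rno-miR-378a-5p) had the same 3 high and 3 low saline libraries: 11.4 to 30.0 rpm in EWH with a median of 20.8, and 8.94 to 184 rpm in saline with a median of 33.8. Saline 1 exceeded the median of the other 11 libraries 9.12-fold in miR-378a-3p and 10.2-fold in miR-378a-5p.

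The spread of these rows within saline was wide for this table. On the log2(rpm + 1) scale miR-378a-3p had a standard deviation of 0.71 in EWH and 1.66 in saline, and miR-378a-5p had 0.48 in EWH and 1.74 in saline, where the median tested miRNA had 0.29 in EWH and 0.34 in saline. Among the 303 miRNAs that passed the filter on low values, at least 1 rpm in at least 6 libraries, the saline spread of miR-378a-3p took place 10, that of miR-378a-5p place 8, that of miR-3557-5p place 6 and that of miR-3557-3p place 4. Their places by the EWH spread were 51, 76, 52 and 87. MiR-378a-3p rested on 2166 to 9324 reads in EWH and 1830 to 32509 reads in saline, and its coefficient of variation was 55.6% in EWH and 114% in saline.

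**Figure D1:**
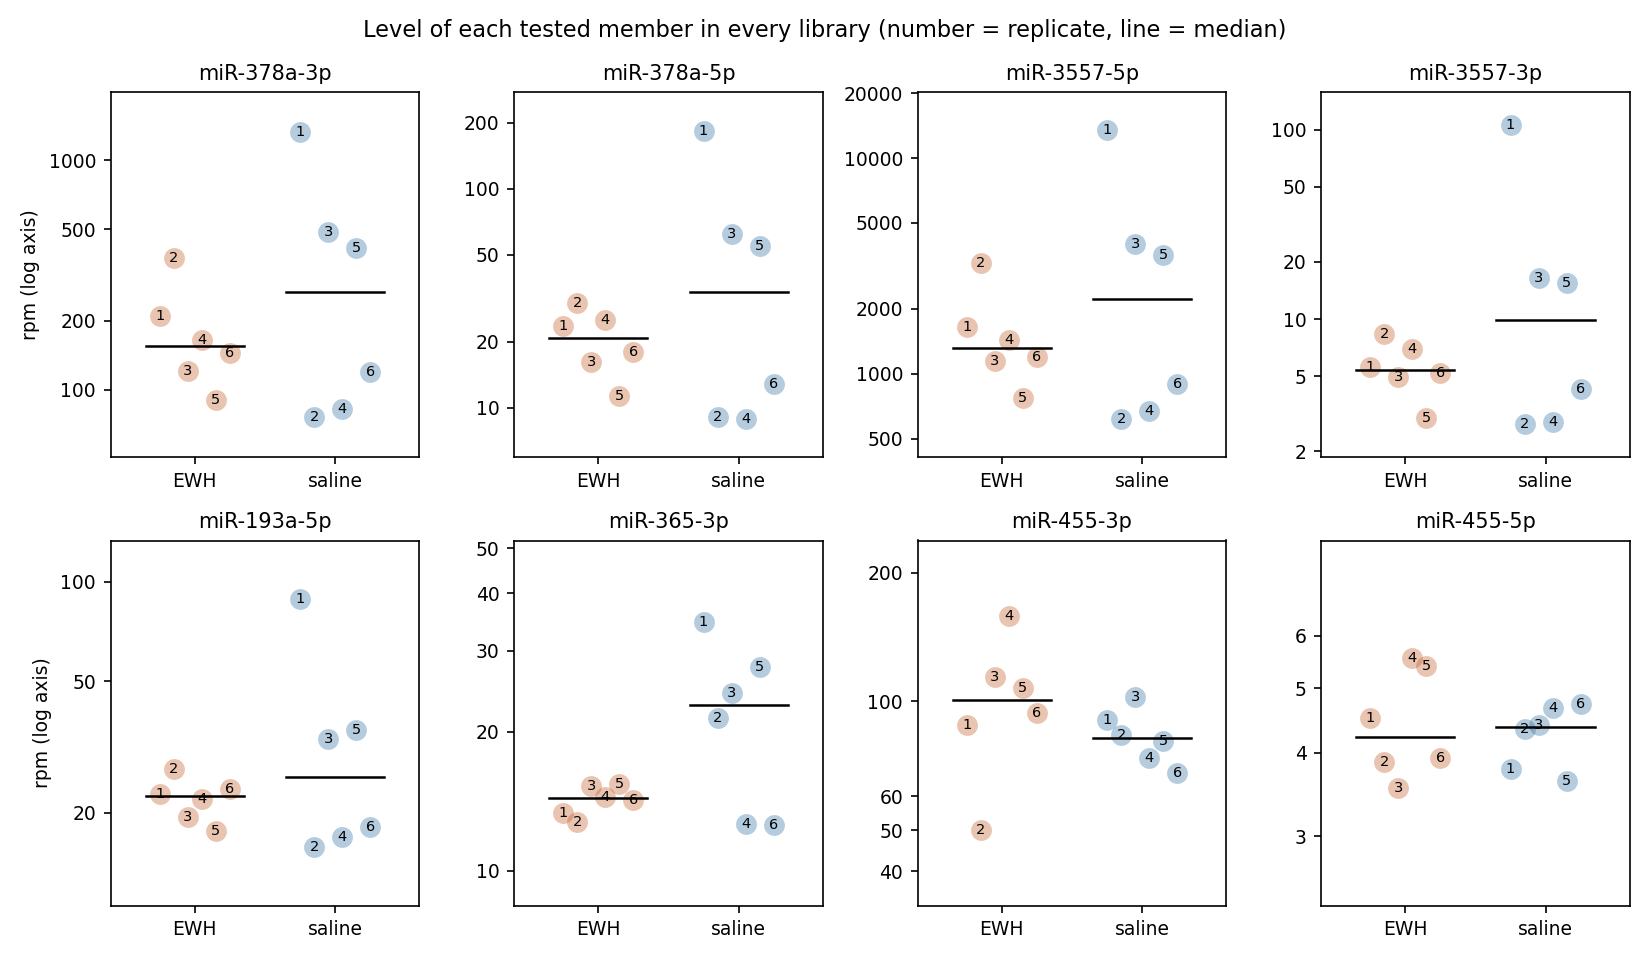
Level (rpm, log axis) of the 8 tested members in the 6 EWH and the 6 saline libraries, with each library's replicate number in its point and a line at the group's median. In the 4 miR-378a and miR-3557 panels and in miR-193a-5p, saline 1 stands highest and saline 2, 4 and 6 lie at or near the bottom; miR-365-3p is tightly grouped in EWH, at 12.8 to 15.4 rpm.

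MiR-3557-5p (rno-miR-3557-5p), the strand opposite miR-378a-3p, was listed far above it in every library. It ranged from 774 rpm through a median of 1317 to 3279 rpm in EWH and from 615 rpm through a median of 2223 to 13504 rpm in saline. Divided by miR-378a-3p in the same library, it gave 8.61 ± 0.53 in EWH and 8.44 ± 0.94 in saline (SD, n = 6 each), within 7.52 to 10.2 over the 12 libraries, while miR-378a-3p itself varied 17.3-fold. On the other arm the order was turned round, and miR-378a-5p exceeded miR-3557-3p 3.67 ± 0.34-fold in EWH and 3.08 ± 0.71-fold in saline (SD, n = 6 each), lowest in saline 1 at 1.75-fold. MiR-3557-3p ranged from 2.99 rpm through a median of 5.39 to 8.32 rpm in EWH and from 2.80 rpm through a median of 9.85 to 105 rpm in saline. Together the 4 rows held 0.112% to 0.463% of the listed reads in EWH and 0.0898% to 1.98% in saline, and miR-3557-5p alone made up 86.8% to 89.3% of that sum in every library.

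Other opposite-strand pairs in the table put these values in context. RefSeq's sequences gave 35 listed pairs in which one mature strand is the reverse complement of another over at least 17 bases at the same place, and both strands passed the filter in 18 of them. Across the 12 libraries the Pearson correlation of log2(rpm + 1) within these 18 pairs ran from −0.22 to 0.997 with a median of 0.82. The pair of miR-3557-5p and miR-378a-3p had the highest, with a standard deviation of the log2 ratio of 0.12 where the median of the 18 was 0.20. For the other pair of this locus, miR-378a-5p and miR-3557-3p, the correlation was 0.977, but the log2 ratio varied more than that median, at 0.30. The points share a library total, and a pair that varies widely gives a high correlation more readily, so these are descriptions.

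**Figure D2:**
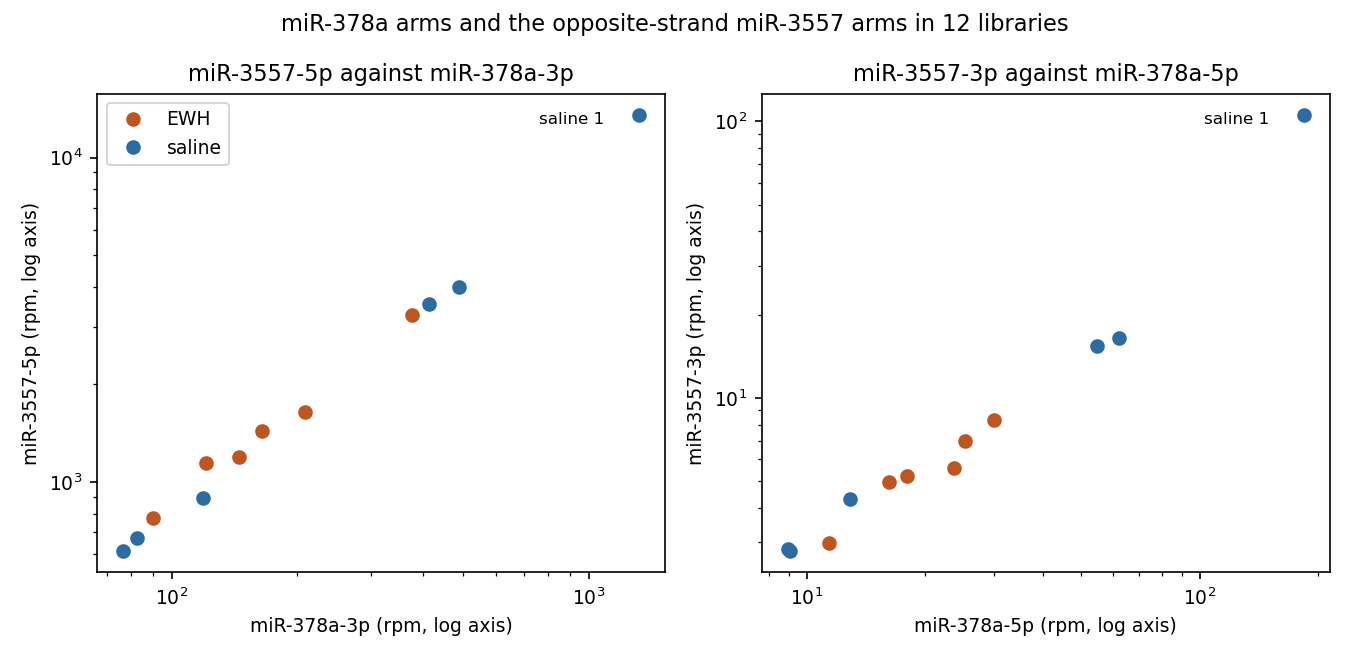
Each miR-3557 arm against the miR-378a arm that it complements, in rpm on log axes, 1 point per library (6 EWH, 6 saline). Both arms rise together across libraries, with miR-3557-5p 7.52 to 10.2 times miR-378a-3p; saline 1 lies at the far end of both panels, and there miR-378a-5p was 1.75 times miR-3557-3p, the lowest ratio.

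MiR-378b, a paralogue from another hairpin, was barely present: 0.0415 to 0.686 rpm in EWH (1 to 17 reads) and 0.0407 to 1.30 rpm in saline (1 to 32 reads). Its highest library was again saline 1, and near-identical miR-378 strands can share reads. It reached 1 rpm in 1 library and was below the filter.

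MiR-193a, a miRNA linked to brown fat through its close relative miR-193b and known as a tumour suppressor, was found mostly as its 5p strand. MiR-193a-5p ranged from 17.6 rpm through a median of 22.5 to 27.2 rpm in EWH and from 15.7 rpm through a median of 25.8 to 88.7 rpm in saline. Saline 1 was again highest at 88.7 rpm, followed by saline 5 at 35.7 rpm and saline 3 at 33.4 rpm, and all 6 EWH libraries lay inside the saline range. MiR-193a-3p (rno-miR-193a-3p), the strand with the seed ACUGGCC, read 0.291 to 1.13 rpm in EWH (7 to 28 reads) and 0.244 to 3.13 rpm in saline (6 to 77 reads), highest in saline 1. It reached 1 rpm in 3 libraries and was below the filter. The 5p strand exceeded the 3p strand 44.6 ± 14.4-fold in EWH and 47.2 ± 22.5-fold in saline (SD, n = 6 each). MiR-193b-3p, the member of the seed family that mouse brown fat is known for, had 3 reads in EWH 2 (0.121 rpm) and none in the other 11 libraries, where a level of up to 0.126 rpm is allowed.

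MiR-365-3p averaged 14.2 ± 1.05 rpm in EWH and 22.2 ± 8.66 rpm in saline (SD, n = 6 each). It ranged from 12.8 rpm through a median of 14.3 to 15.4 rpm in EWH and from 12.6 rpm through a median of 22.9 to 34.7 rpm in saline. The groups overlapped, since saline 4 and 6 lay just under all EWH libraries while the other 4 saline libraries lay above them all. Within EWH the coefficient of variation was 7.36%, close to the 5.37% that counting 316 to 376 reads gives by itself, and within saline it was 38.9% against 4.30%. MiR-365-5p had 1 read in 1 library (EWH 3, 0.0407 rpm) and none elsewhere.

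MiR-455, which in mice favours the brown adipocyte programme and in cartilage accompanies Col27a1, did not share the high libraries. MiR-455-3p ranged from 49.9 rpm through a median of 101 to 159 rpm in EWH and from 67.8 rpm through a median of 82.0 to 102 rpm in saline, with EWH 4 highest and EWH 2 lowest of all libraries. Saline 1 read 90.5 rpm, 1.03 times the median of the other libraries. MiR-455-5p was steady at 3.54 to 5.56 rpm in EWH with a median of 4.23 and 3.64 to 4.74 rpm in saline with a median of 4.37. Its coefficient of variation was 18.9% in EWH and 10.8% in saline, where counting 87 to 135 reads in EWH gives 9.59% and 88 to 116 reads in saline 9.81%.

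Members thus fell into rows that varied together across libraries and rows that did not. Of the 28 pairs of tested members, 15 had a Pearson correlation of log2(rpm + 1) over the 12 libraries with a Benjamini-Hochberg adjusted permutation p under 0.05, all of them among miR-378a, miR-3557, miR-193a-5p and miR-365-3p. By Spearman's rho 10 of the 15 passed, without the 5 pairs of miR-365-3p. Of the 15, 14 hold a row of the miR-378a and miR-3557 locus, whose 4 rows are not separate observations. The share of pairs that would pass among all tested miRNAs was not computed, so this count does not set the members apart from other miRNAs. MiR-193a-5p, from chromosome 10, and miR-378a-3p, from chromosome 18, share no locus and no seed, and gave r = 0.955 and rho = 0.972 (permutation p = 1e-05 each, the smallest that 100000 resamples can give; adjusted p = 2.8e-05 and 3.5e-05). Without saline 1 and 5, the libraries farthest from the median of miR-193a-5p, r was 0.967, and within the groups it was 0.923 in EWH and 0.974 in saline. The correlation held in both groups and did not rest on saline 1.

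MiR-365-3p, whose examined hairpin lies in the same gene as that of miR-193a, behaved otherwise. With miR-193a-5p it gave r = 0.759 (permutation p = 0.0047, adjusted 0.0109) and rho = 0.455 (permutation p = 0.139, adjusted 0.259), and without saline 1 and 5 r was 0.248, so the relation rests on those libraries. Within the groups it was −0.917 in EWH and 0.827 in saline, over a range of 12.8 to 15.4 rpm in EWH that is near the counting error. With miR-378a-3p the values were r = 0.680 (permutation p = 0.0146, adjusted 0.0273) and rho = 0.448 (permutation p = 0.148, adjusted 0.259), and r = 0.205 without the farthest pair of libraries. Here too the sign differed between the groups, with r = −0.957 in EWH, over the same narrow range of miR-365-3p, and 0.829 in saline. Neither miR-455 arm had a correlation with another member that passed the threshold.

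The miRNAs whose pattern was most like miR-378a-3p were, apart from its own locus, those of the miR-203 hairpins and miR-193a-5p. Over the 12 libraries Pearson's r of log2(rpm + 1) was 0.977 for miR-203b-3p, 0.967 for miR-203a-3p, 0.961 for miR-203b-5p and 0.955 for miR-193a-5p, and without saline 1 these were 0.957, 0.938, 0.926 and 0.964. MiR-203a-3p, known from skin and other epithelia and from mouse brown fat, is printed with its seed in capitals, above the reverse complement of miR-203b-5p, whose bases shared with it are in capitals: the same opposite-strand arrangement as at miR-378a.
miR-203a-3p: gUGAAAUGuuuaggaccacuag
reverse complement of miR-203b-5p, against miR-203a-3p: GUGAAAUGUUUAGGACCACU
It ranged from 39.6 rpm through a median of 97.5 to 172 rpm in EWH and from 33.6 rpm through a median of 111 to 572 rpm in saline, highest in saline 1, 3, EWH 2 and saline 5. For miR-193a-5p the most alike outside the members was miR-224-5p (r = 0.957, or 0.844 without saline 1), and for miR-3557-3p they were miR-30c-1-3p (0.966, or 0.878), miR-30e-3p (0.954, or 0.853) and miR-224-5p (0.953, or 0.833). For miR-365-3p they were miR-34a-5p (0.858), let-7g-5p (0.842), miR-30d-3p (0.804), miR-3068-3p (0.798) and miR-103-3p (0.794). Without saline 1 these were 0.829, 0.711, 0.632, 0.630 and 0.712, in that order. MiR-455-3p was most like the Dlk1-Dio3 miRNAs miR-493-5p (0.854), miR-337-5p, miR-410-3p, miR-3543 (each 0.849) and miR-494-3p (0.832). MiR-455-5p was most like miR-486 (0.750), miR-451-5p (0.687), miR-144-3p (0.656), miR-32-5p (0.641) and miR-144-5p (0.633), mostly miRNAs of red blood cells.

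**Figure D3:**
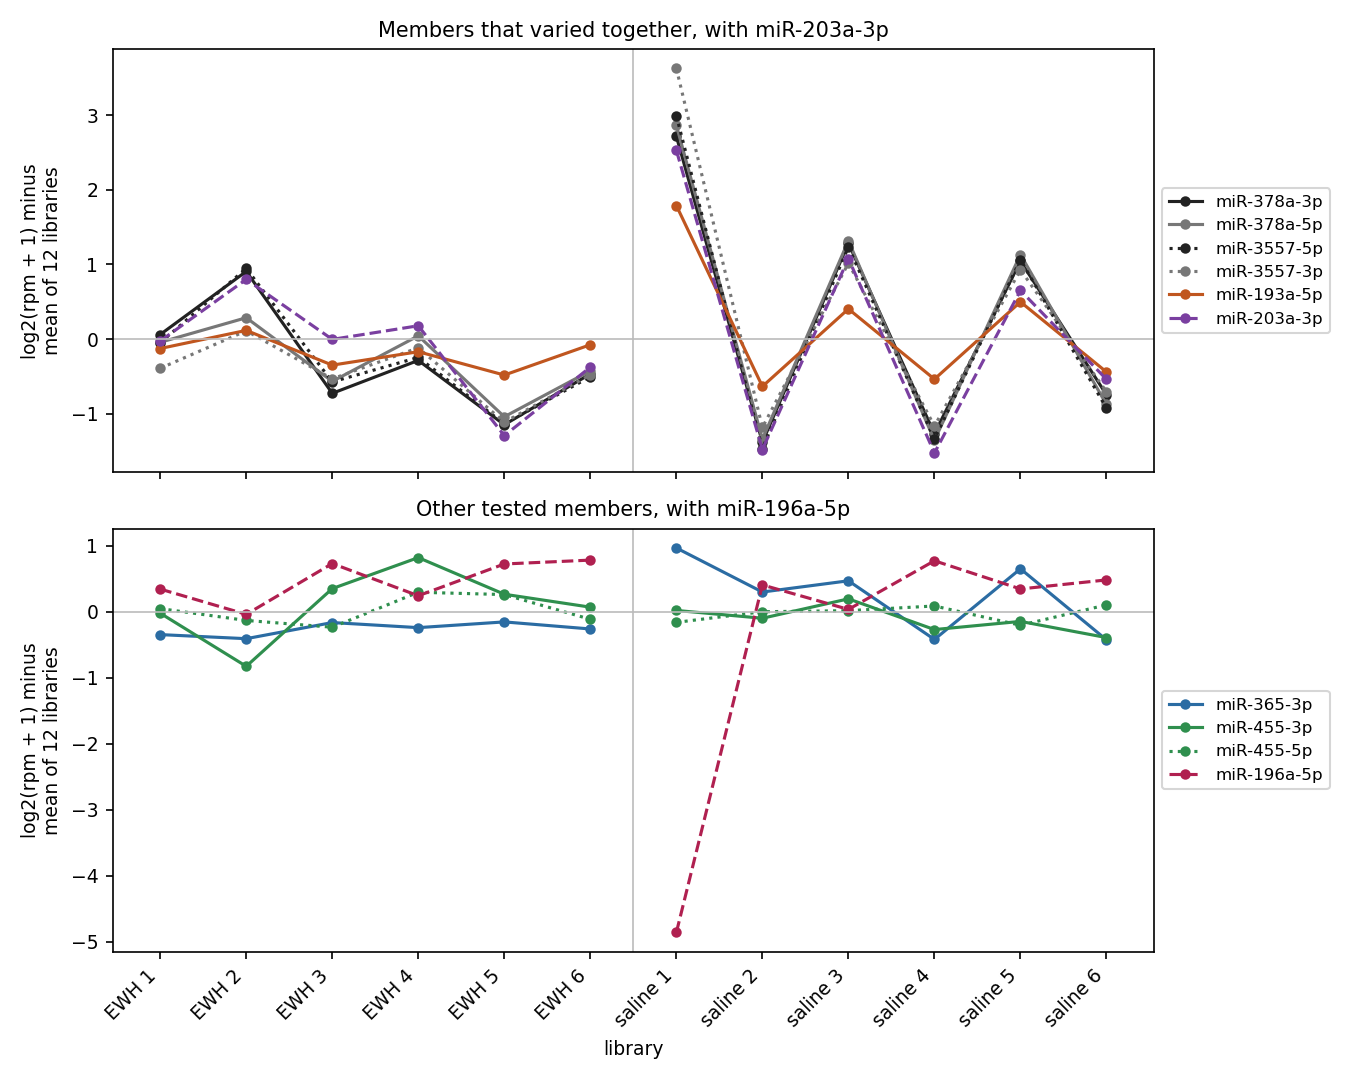
Level of each miRNA in every library, as log2(rpm + 1) minus its mean over the 12 libraries, with EWH 1 to 6 on the left and saline 1 to 6 on the right; lines only join points of 1 miRNA, since replicates have no order. In the upper panel the miR-378a, miR-3557, miR-193a-5p and miR-203a-3p points move together, high in saline 1, 3 and 5; in the lower panel miR-455 does not, and miR-196a-5p is lowest in saline 1, at 10.2 rpm.

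Saline 1 had the highest value in 8 of the 12 members. These 8 include every row of the miR-378a and miR-3557 locus, which are not separate observations, and the share of all miRNAs highest in saline 1 was not counted. Saline 1 stood apart in other miRNAs as well. MiR-196a-5p, which is encoded in the Hox clusters and in mice favours the browning of white fat, read 10.2 rpm in saline 1 and 317 to 562 rpm in the other 11 libraries, and miR-196b-5p read 50.9 rpm against 356 to 494 rpm (both singled out after their values were seen). MiR-196a-5p was the tested miRNA most opposed to miR-378a-3p, at r = −0.773, or −0.760 without saline 1, although miR-196 and miR-203a stand on the same list of brown and beige fat regulators. The summed endothelial miR-126a rows ranged from 4264 to 6913 rpm in EWH and from 3290 to 12305 rpm in saline, highest in saline 1. The summed red blood cell rows ranged from 119 to 385 rpm in EWH and from 80.4 to 364 rpm in saline, lowest in saline 1. Rows defining smooth muscle, miR-143 and miR-145, summed to 331968 to 428677 rpm in EWH and 347013 to 426858 rpm in saline, so these markers of the vessel wall were abundant in every library. The part of these other cell types in the levels of the members was not tested, and in bulk tissue fewer cells of a type and less RNA per cell cannot be told apart.

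Between the groups, 6 of the 8 tested members had a lower mean log2 level in EWH than in saline. The other 2, the miR-455 arms, had a higher one. MiR-455-5p was lower, at −0.095, after quantile normalization, and miR-3557-5p higher, at 0.027, without saline 1. No member passed the adjusted threshold of the main limma fit. By limma with Benjamini-Hochberg adjustment over the 303 tested miRNAs, 0 of the 8 members passed 0.05, where 0.0% of all tested passed. Before adjustment 1 member, miR-365-3p, had a limma p under 0.05, where 23.1% of all tested lay under it and 7.92% did so with a lower mean in EWH. On whole reads recovered from the rpm values, edgeR's quasi-likelihood test called 0 of the 8, where it called 13.2% of all. At an unadjusted edgeR p under 0.05 there were 2 members, against 26.1% of all. DESeq2 called 1 of the 8, where it called 20.8% of all, and 2 lay under an unadjusted p of 0.05, against 29.0% of all. A lower mean was common in the whole table, at 60.1% of the tested miRNAs. The median log2 difference was −0.52 over the 8 members and −0.06 over all tested, and 4 of the 8 are rows of the miR-378a and miR-3557 locus that cannot be told apart. Groups overlapped for all 12 members, and did not overlap for 1.65% of the tested miRNAs.

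MiR-365-3p had the smallest p of the members. Its difference was −0.52 on the log2(rpm + 1) scale (SE 0.23), or 0.698-fold, with a 95% interval of 0.492 to 0.99-fold, and its limma Benjamini-Hochberg adjusted p was 0.199. All 6 EWH libraries lay under the saline median and all 6 lay inside the saline range. EdgeR gave it an adjusted p of 0.12 and DESeq2 0.0593, both with Benjamini-Hochberg adjustment, and over all alternatives tried its adjusted p lay between 0.0593 and 0.39. With a library left out its log2 difference ran from −0.66 (without saline 6) to −0.38 (without saline 1).

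MiR-378a-3p differed by −0.55 (SE 0.67), or 0.682-fold with an interval of 0.25 to 1.87-fold, at a limma adjusted p of 0.647. MiR-378a-5p differed by −0.58 (SE 0.67), or 0.669-fold with an interval of 0.243 to 1.84-fold, at a limma adjusted p of 0.64. The intervals are wide in both directions and set no close bound on the difference. With a library left out, the log2 difference of miR-378a-3p ran from −0.88 (without saline 2; −0.86 without saline 4) to −0.06 (without saline 1; −0.35 without saline 3). That of miR-378a-5p ran from −0.91 (without saline 4 or saline 2) to −0.07 (without saline 1; −0.38 without saline 3). EdgeR, which compares means of reads and not means of logs, gave −1.04 for miR-378a-3p and −1.32 for miR-378a-5p. MiR-3557-5p differed by −0.52 (SE 0.71) and miR-3557-3p by −0.84 (SE 0.71), at limma adjusted p of 0.693 and 0.527. DESeq2 gave miR-3557-3p a log2 difference of −2.02 (SE 0.79) and an adjusted p of 0.0492 by Benjamini-Hochberg, the only call among the members by these 3 tools. Over all alternatives its adjusted p, from limma, edgeR or DESeq2, lay between 0.0492 and 0.806, and with a library left out its limma difference ran from −1.16 (without saline 2) to −0.20 (without saline 1).

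MiR-193a-5p differed by −0.36 (SE 0.36), or 0.779-fold with an interval of 0.452 to 1.34-fold, at a limma adjusted p of 0.59, and with a library left out by −0.52 (without saline 2) to −0.04 (without saline 1). MiR-455-3p differed by 0.22 (SE 0.23), or 1.17-fold with an interval of 0.83 to 1.65-fold, at a limma adjusted p of 0.59. Without EWH 2 it differed by 0.41, and without EWH 4 by 0.08. MiR-455-5p differed by 0.05 (SE 0.13), or 1.03-fold with an interval of 0.85 to 1.26-fold, at a limma adjusted p of 0.849. Of the 4 members below the filter, fitted with all 641 rows, limma gave adjusted p of 0.694 to miR-193a-3p, miR-365-5p and miR-378b and 0.628 to miR-193b-3p.

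The plain ratio between the arms of a hairpin does not depend on the library total. The fitted log2 ratio does so slightly where an arm is low, through the 1 rpm added to each arm. MiR-378a-3p exceeded miR-378a-5p 8.55 ± 2.09-fold in EWH and 8.25 ± 0.87-fold in saline (SD, n = 6 each), from 6.51-fold in EWH 4 to 12.5-fold in EWH 2. These folds leave out the miR-3557 rows, whose reads cannot be told apart from those of miR-378a, so the balance at this locus is not settled. The log2 ratio of 5p to 3p differed between EWH and saline by −0.03 (SE 0.14) with an interval of −0.33 to 0.27, at an adjusted p of 0.916 by limma over 67 hairpins. None of the 67 passed (0.0%), and 13 lay under an unadjusted limma p of 0.05, or 19.4%. With each miR-378a arm summed with its miR-3557 partner, a setting chosen after seeing the data, the miR-378a difference was −0.13 (SE 0.13) at a limma adjusted p of 0.646. For miR-455 the difference was −0.18 (SE 0.21) at a limma adjusted p of 0.705, and with a library left out it ran from −0.34 (without EWH 2) to −0.08 (without EWH 3), with −0.09 without EWH 4 and −0.10 without saline 6. For miR-3557 it was 0.32 (SE 0.17) at a limma adjusted p of 0.385, and with a library left out it ran from 0.18 (without EWH 2) to 0.40 (without saline 3). With 0.1 rpm added in place of 1 rpm the miR-3557 difference was 0.345, and with 5 rpm 0.202.

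**Figure D4:**
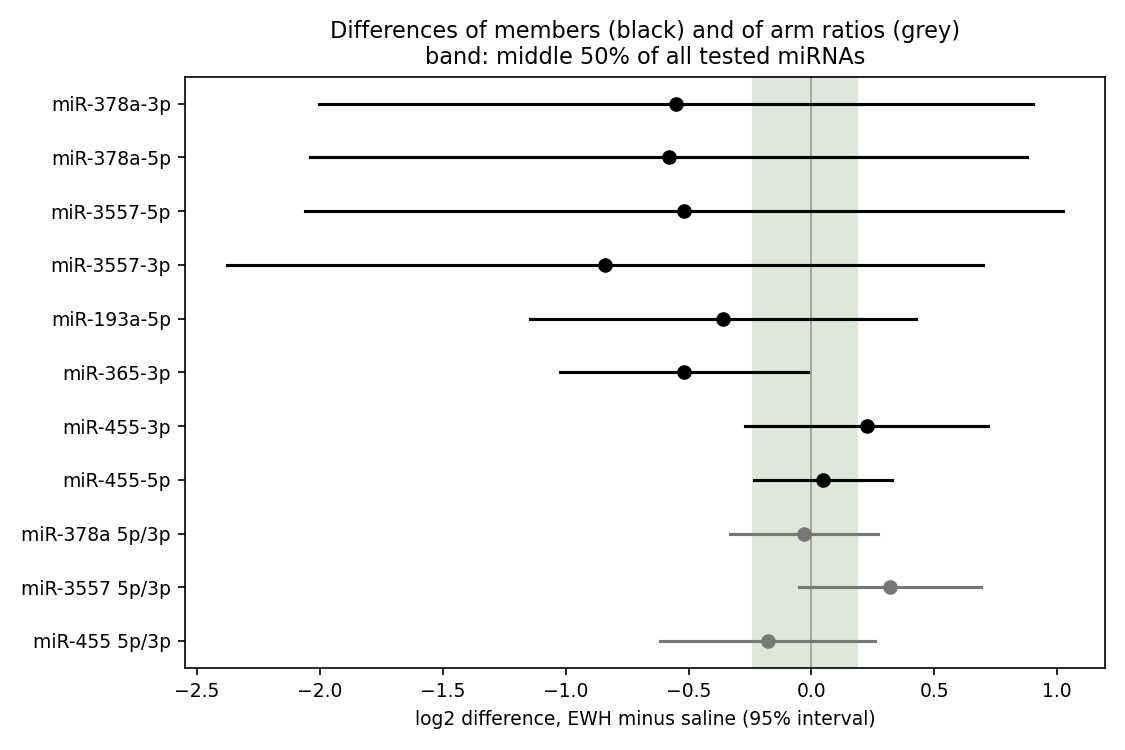
Difference between EWH and saline for the 8 tested members (black, log2(rpm + 1)) and for the 5p to 3p ratio of 3 hairpins (grey), each with its 95% interval; the band runs from the lower to the upper quartile of all tested miRNAs. Every interval reaches 0 apart from that of miR-365-3p, whose limma p was 0.0446 before and 0.199 after adjustment.

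Other miRNAs known to promote or restrain brown and beige fat were examined as a list of 21 hairpins, of which 20 were listed with 37 rows. Of 28 tested rows 6 had a higher and 22 a lower mean in EWH, where 60.1% of all tested miRNAs had a lower one. The median log2 difference was −0.14, and 0 passed limma after adjustment. Under an unadjusted limma p of 0.05 lay 6 rows, where 23.1% of all tested did. The 6 were let-7i-5p, higher in EWH, and miR-27a-5p, miR-27a-3p, miR-93-5p, miR-106b-5p and miR-106b-3p, lower. Among the rows with a higher mean in EWH were miR-196a-5p (0.93, SE 0.81, limma adjusted p of 0.54) and miR-196b-5p (0.61, SE 0.45, limma adjusted p of 0.467), both lowest in saline 1. The most abundant rows were miR-26a-5p, which favours adipocyte formation, at 107494 ± 8599 rpm in EWH and 102896 ± 8690 rpm in saline, let-7i-5p at 26224 ± 2028 rpm in EWH and 22107 ± 1332 rpm in saline, and miR-27b-3p, which restrains the brown programme in mice, at 10947 ± 1040 rpm in EWH and 11834 ± 2000 rpm in saline (SD, n = 6 each). MiR-203a-3p, whose library pattern was like that of miR-378a-3p, differed by −0.24 (SE 0.64) at a limma adjusted p of 0.846.

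Lists of miRNAs marking other cells gave no limma call either. Of the tested rows, 6 of 15 white adipocyte rows had a higher mean in EWH (median log2 difference −0.05), 2 of 5 of skeletal and cardiac muscle (−0.14), 1 of 4 of smooth muscle (−0.11), 0 of 2 of endothelium (−0.13), 2 of 4 of erythrocytes (0.01), 2 of 7 of leukocytes (−0.24), 4 of 5 of neurons and glia (1.47), 1 of 5 of epithelium (−1.14) and 1 of 1 of hepatocytes (0.74). Before adjustment, limma p-values under 0.05 belonged to 3 white adipocyte rows, 1 muscle row, 4 rows of neurons and glia and 1 epithelial row, and 0 in the other lists. Of all tested miRNAs 23.1% lay under it, and 60.1% had a lower mean in EWH. The muscle rows, relevant since miR-378a is also a muscle miRNA, summed to 713 to 1439 rpm in EWH and 429 to 1368 rpm in saline. Saline 1 took place 9 of 12 among their sums, but the rows differed. In saline 1 the most abundant row, miR-1-3p, was at its lowest, 201 rpm, while miR-499-5p read 354 rpm against a saline median of 226 rpm. MiR-206-3p read 30.5 rpm there against a saline median of 30.3 rpm. The epithelial rows, relevant since miR-203a is also an epithelial miRNA, summed to 18.7 to 54.4 rpm in EWH and 24.4 to 650 rpm in saline, and saline 1, at 28.7 rpm, took place 6 of 12. The white adipocyte rows summed to 332687 to 428222 rpm in EWH and 347206 to 426317 rpm in saline, and saline 1 took place 11 of 12. MiR-143-3p, which is also a smooth muscle row, dominates this sum, so the sum tells little of fat. Among other rows of the list, miR-103-3p was highest in saline 1, at 422 rpm. MiR-146b-5p (373 rpm) and miR-221-3p (346 rpm) in saline 1 lay inside the range of the other saline libraries. Leukocyte rows summed to 108 to 195 rpm in EWH and 92.7 to 238 rpm in saline, highest in saline 1. That sum came mostly from miR-150-5p, at 209 rpm in saline 1. MiR-142-3p and miR-142-5p read 14.9 and 2.72 rpm there, under their saline medians of 17.1 and 5.52 rpm. Hepatocyte rows summed to 125 to 801 rpm in EWH and 37.4 to 1006 rpm in saline, lowest in saline 1. Rows of neurons and glia summed to 118 to 971 rpm in EWH and 81.5 to 191 rpm in saline. Their part in the levels of the members was not tested.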

How the data were processed

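Values come from a single deposited table (641 miRNAs, 12 libraries) in reads-per-million (rpm) units; it is named for TPM, but its values hold whole reads over a library total (100% whole within 0.01 read) and no length term. Per the submitters' processing notes the build was rn6; how reads were aligned, counted, assigned to a strand or mapped more than once is not stated there. Per the labels' protocols, RNA was extracted with Trizol and inserts of 15 to 35 nt were taken.

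Columns were mapped by sample description. The filter kept 303 miRNAs (1 rpm or more in 6 or more libraries), 8 of the 12 members among them. These were tested as log2(rpm + 1), EWH minus saline, in a two-sided limma fit with an intensity trend (version 3.58.1, R 4.3.3) and Benjamini-Hochberg adjustment, so that differences of low miRNAs are understated. Arm ratios used log2((5p + 1)/(3p + 1)) and limma. EdgeR 4.0.16 and DESeq2 1.42.0 were run on recovered reads. Named miRNAs were all members, the 5 tested miRNAs most correlated with each tested member (other arm left out), seed sharers, and the top 3 rows of each list, not all printed. Members and lists were chosen with earlier results of these data known. Procedures were tested on simulated data. Sequences are from RefSeq (GRCr8), which was not the data's build, so no coordinates are given. Figures used Python 3.11.15 and matplotlib 3.10.9.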

Additional observations from a re-analysis of the deposited data

Results flagged for a closer look

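Among groups of 6 libraries, a library was singled out where its gap to the nearest other library, as a share of the group's range, exceeded Dixon's 95% critical value. For values spread near-normally, chance gives this in about 1 of 20 groups. The rule was applied to rpm and ratios without logs. Rows with a long upper tail exceed the value more readily on that scale, so the count cannot be set against 1 of 20. Of 32 groups examined 8 were singled out, 7 of them through saline 1, and the rows of the miR-378a and miR-3557 locus are not separate observations. Saline 1 stood above the other saline libraries at 1321 rpm in miR-378a-3p, 184 rpm in miR-378a-5p, 13504 rpm in miR-3557-5p and 105 rpm in miR-3557-3p. It did so too at 88.7 rpm in miR-193a-5p and 3.13 rpm in miR-193a-3p, and its ratio of miR-3557-5p to miR-3557-3p was the lowest, at 128. EWH 2 stood above the other EWH libraries in miR-3557-5p at 3279 rpm.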

How the results depend on the processing

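Of 259 alternative values for the 8 tested members and 3 arm ratios, 250 kept their direction and their side of the adjusted threshold, 1 passed it (miR-3557-3p by DESeq2, −2.02) and 8 changed sign, all at differences whose main value missed the threshold; the cause was not tested. MiR-3557-5p ran from −0.86 to 0.027 with a library left out, positive without saline 1, with −0.84 without saline 4, −0.32 without saline 3 and −0.34 without EWH 5. MiR-455-3p was −0.013 and the miR-455 arm ratio 0.055 without EWH 3 and 4. MiR-455-5p was −0.095 after quantile normalization and ran from −0.0083 (without EWH 4; −0.0012 without EWH 5) to 0.10 with a library left out. The miR-378a arm ratio was 0.075 after quantile normalization and ran from −0.10 to 0.092, positive without EWH 2. The limma count of called miRNAs, 0 (70 at an unadjusted p under 0.05), was 8 after quantile normalization, 1 without EWH 3 and 4, and 0 to 24 with a library left out (24 without EWH 2, 1 without EWH 4); edgeR called 40 and DESeq2 63. No miRNA was called by limma with the replicate number as a block (0, with 57 at an unadjusted p under 0.05). Same-numbered libraries did not deviate together as whole profiles (r from −0.50 to 0.31, with 1 of 12 libraries correlating best with its own number). The labels state no batch or pairing, and correlations of whole profiles cannot show that none was shared. Summing each miR-378a arm with its opposite-strand partner, chosen after seeing the data, gave −0.52 and −0.65 in place of −0.55 and −0.58.

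Some members had no value in a setting that removed their row (a filter of 10 rpm, or the sum above). Values cover counting error only down to 3 reads, which limits miR-193b-3p, miR-365-5p and miR-378b.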
